A study of Arabidopsis thaliana with 8 samples.

Results

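The SAUR (small auxin up RNA) family of Arabidopsis thaliana was followed in dark-grown seedlings given red light. The members were 51 loci, named by locus identifier, out of 27416 transcript models in the files. Of these, 28 lie in 5 tandem clusters, named here by the shared start of their identifiers: AT1G294-295 with 8 genes, AT3G038 with 4, AT4G347-348 with 6, AT4G388 with 4 and AT5G180 with 6. The other 23 lie outside these clusters. Some of them are also neighbours by identifier, such as SAUR7 (AT2G21200), SAUR6 (AT2G21210) and SAUR12 (AT2G21220). In all, 79 loci carry a SAUR number in the gene table used for names, so 28 SAUR loci are not members and were kept for comparison. The 51 loci were chosen with earlier results of these data known. A contrast between them and the other 28, or between them and all genes, is therefore a description.

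SAUR genes encode short proteins, and many of their transcripts accumulate within minutes of auxin treatment and decay quickly. SAUR proteins such as SAUR19 bind and inhibit PP2C.D phosphatases, which otherwise remove an activating phosphate from plasma membrane proton pumps; pumps left phosphorylated acidify the cell wall, and the cell expands. In seedlings leaving darkness, light is known to induce some SAUR genes in cotyledons, SAUR14, SAUR16 and SAUR50 among them, and to lower many in the hypocotyl, where phytochrome-interacting factors (PIFs) raise their transcription in the dark.

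Whole seedlings of the Col-0 ecotype were compared in 4 groups of 2 libraries: phyAB (a phyA phyB double mutant, red light), phyB (a phyB mutant, red light), WT red (wild type, red light) and WT dark (wild type kept dark). All seedlings had spent 3 days at 4 °C, 12 h in white light and 5 days in darkness on medium with 1% sucrose, and the red-light groups then received red light for 1 h, at 50 µmol of photons per square metre and second, per the labels' protocols (the labels do not all write the area unit alike). Which alleles the mutants carry is not stated in the labels. Mutants kept in the dark were not analysed, so a difference between a mutant and WT red may have existed before the light was given.

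Phytochromes A and B are the red and far-red light receptors that the mutants lack. PHYA had 123.9 and 123.2 CPM in phyAB, 703.0 and 702.5 CPM in phyB, 463.1 and 470.5 CPM in WT red, and 834.2 and 827.9 CPM in WT dark (CPM, counts per 1e6 of the scaled library total). PHYB had 52.9 and 50.4 CPM in phyAB, 62.3 and 64.3 CPM in phyB, 96.0 and 95.2 CPM in WT red, and 80.7 and 81.3 CPM in WT dark. Each targeted transcript was thus lowest where the labels name its mutant, though still present. Depth was 15926547 to 22116924 reads per library. The labels do not say that the 2 libraries of a group came from separate sowings, so p-values measure only how far these libraries spread, and that spread may be technical. Between the 2 libraries of a group, variance averaged 1.35 to 1.48 times that of counting alone, depending on the group. The common coefficient of variation beyond counting was 1.59%. Small p-values here thus rest on a spread close to counting noise. Of the organ markers examined, the summed root hair markers (RHD6, EXPA7, EXPA18 and SHV2) were at 20.9 and 23.3 CPM in phyAB, 9.41 and 11.1 CPM in phyB, 13.3 and 13.98 CPM in WT red, and 25.4 and 22.3 CPM in WT dark. Root meristem markers summed to between 47.8 and 55.3 CPM in every library, most of it from SCR. Shoot apex markers, with WUS at or near 0, summed to 4.02 and 6.18 CPM in phyAB and 6.92 and 6.20 CPM in phyB. They were at 9.43 and 9.40 CPM in WT red and 5.71 and 6.12 CPM in WT dark. Stomatal lineage markers summed to 4.70 and 4.30 CPM in phyAB and 7.17 and 6.29 CPM in phyB. These were at 5.64 and 6.20 CPM in WT red and 2.00 and 2.47 CPM in WT dark. The part of organ makeup in the SAUR differences was not tested, and in whole seedlings fewer cells of a type and less RNA per cell cannot be told apart.

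The coding sequences of the AT5G180 cluster show how alike the copies are, and hence how reads could be shared among them. Aligned over 276 columns, the 6 genes had the same base in 223 columns and differed in 53. Identity between any pair of them was 87.7 to 95.2%, with a median of 91.2%. Below are SAUR19 and SAUR24, the closest pair, and SAUR22, whose transcript changed most in red light among the 6. The sequences are RefSeq coding sequences on TAIR10.1, chromosome 5, written 5′ to 3′, and capitals mark the bases that are not the same in all 6 genes.
SAUR19: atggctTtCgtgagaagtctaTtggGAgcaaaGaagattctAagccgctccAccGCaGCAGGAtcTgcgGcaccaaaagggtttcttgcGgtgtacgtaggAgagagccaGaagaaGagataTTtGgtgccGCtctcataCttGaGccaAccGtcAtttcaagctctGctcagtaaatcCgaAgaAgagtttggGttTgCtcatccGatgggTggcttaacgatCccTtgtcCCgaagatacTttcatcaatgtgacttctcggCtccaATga
SAUR22: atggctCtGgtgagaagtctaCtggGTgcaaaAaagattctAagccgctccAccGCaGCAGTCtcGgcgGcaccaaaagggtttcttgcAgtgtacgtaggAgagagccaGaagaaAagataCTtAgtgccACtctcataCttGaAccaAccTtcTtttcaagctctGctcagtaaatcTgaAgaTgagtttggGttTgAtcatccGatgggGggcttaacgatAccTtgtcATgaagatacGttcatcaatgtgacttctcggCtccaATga
SAUR24: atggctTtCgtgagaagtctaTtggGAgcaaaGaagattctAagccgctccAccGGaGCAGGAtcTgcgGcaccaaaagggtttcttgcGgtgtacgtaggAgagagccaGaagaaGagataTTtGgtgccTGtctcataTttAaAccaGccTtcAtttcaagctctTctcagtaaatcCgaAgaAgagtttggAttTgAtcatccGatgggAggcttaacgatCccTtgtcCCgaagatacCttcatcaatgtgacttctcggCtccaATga

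Copies were less alike in the other clusters. Median pairwise identity of the coding sequences was 82.0% in AT3G038, 63.2% in AT1G294-295, 58.8% in AT4G388 and 56.2% in AT4G347-348. Beyond the clusters, SAUR62 and SAUR75 shared 97.0% of bases and SAUR12 and SAUR16 shared 85.5%. In all, 29 of the 51 members had no other member at 80% identity or more. How the counting treated reads that fit several places, and whether it used strand, was not stated, so single values within AT5G180 and within the close pairs are uncertain.

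Upstream sequence was read for all 51 members as the 250 bases before the gene start in the RefSeq annotation of TAIR10.1, and 2 of these windows overlapped another gene. The window of SAUR7 overlapped SAUR6, and that of SAUR63 overlapped AT1G29435. The PIF-binding E-box CATGTG, read as CACATG on the other strand, was present in 30 of 51 windows, or 58.8%, and in 11.1% of the windows of 27444 protein-coding genes. It stood before 8 of 8 genes in AT1G294-295, 4 of 4 in AT3G038, 4 of 6 in AT4G347-348, 3 of 4 in AT4G388 and 3 of 6 in AT5G180, and before 8 of 23 members outside the clusters. The G-box CACGTG, the other letters that PIFs are known to bind, was in 0 of 51 windows and in 6.5% of all windows. The auxin response element TGTCTC, read as GAGACA on the other strand, was in 7 of 51, or 13.7%, against 10.9% of all windows. Outside the clusters, 1 of 23 windows held TGTCTC, and it was that of SAUR7. Its high-affinity form TGTCGG, read as CCGACA on the other strand, was in 2 of 51, or 3.9%, against 4.2%. Matches were counted on both strands and for each motif on its own, so matches of different motifs may share bases. Tandem copies share ancestry, and a match is a description of the letters and not evidence of a bound site.

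**Figure D1:**
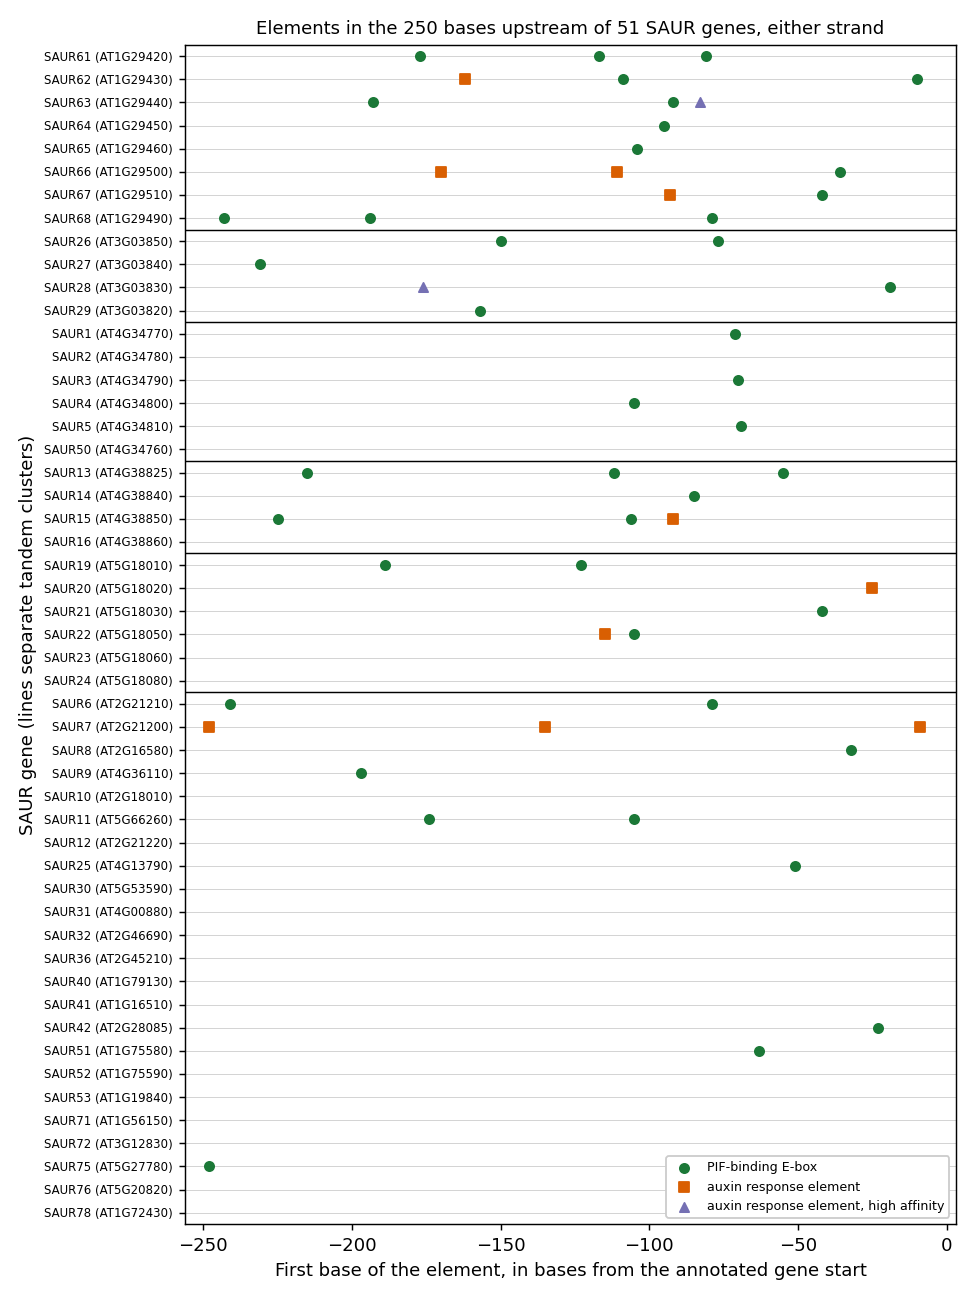
Positions of 3 elements in the 250 bases upstream of the annotated start of the 51 SAUR genes, as bases from the start, with either strand counted and horizontal lines between clusters. Circles (the PIF-binding E-box, 30 of 51 genes) fill the AT1G294-295 and AT3G038 clusters, and the lower block of genes outside the clusters holds few.

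The upstream windows of 4 members are printed because their transcripts behaved differently. SAUR13 and SAUR14 belong to the same cluster and went opposite ways in red light, SAUR25 had the largest fall in red light, and SAUR76 was called higher than WT red in phyAB and not called in phyB. Each is written 5′ to 3′ on the strand of the gene, on TAIR10.1, with CATGTG or CACATG in capitals.
SAUR13 (chr4:18121276-18121525, + strand): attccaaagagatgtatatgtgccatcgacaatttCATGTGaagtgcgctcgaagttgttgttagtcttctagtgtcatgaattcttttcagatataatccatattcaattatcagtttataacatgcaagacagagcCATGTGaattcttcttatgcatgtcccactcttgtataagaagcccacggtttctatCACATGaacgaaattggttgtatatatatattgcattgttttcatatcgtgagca
SAUR14 (chr4:18125560-18125809, - strand): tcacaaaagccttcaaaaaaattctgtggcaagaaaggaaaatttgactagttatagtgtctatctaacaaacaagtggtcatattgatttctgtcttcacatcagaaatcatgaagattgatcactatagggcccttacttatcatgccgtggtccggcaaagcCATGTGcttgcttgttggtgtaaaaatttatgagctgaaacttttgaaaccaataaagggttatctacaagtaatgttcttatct
SAUR25 (chr4:8000373-8000622, - strand): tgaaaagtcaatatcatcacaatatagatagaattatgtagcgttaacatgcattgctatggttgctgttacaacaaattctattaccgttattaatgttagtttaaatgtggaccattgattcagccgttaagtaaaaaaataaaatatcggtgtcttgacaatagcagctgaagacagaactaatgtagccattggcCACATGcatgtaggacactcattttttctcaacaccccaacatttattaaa
SAUR76 (chr5:7047447-7047696, - strand): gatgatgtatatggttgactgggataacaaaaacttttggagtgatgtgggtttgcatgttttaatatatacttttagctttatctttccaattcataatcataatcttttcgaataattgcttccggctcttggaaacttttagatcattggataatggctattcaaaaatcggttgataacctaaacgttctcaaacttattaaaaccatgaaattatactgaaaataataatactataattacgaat

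SAUR13 thus had 3 of these elements, SAUR14 had 1, SAUR25 had 1 and SAUR76 had 0 in this window. The 4 were picked by their transcripts, and a relation of element number to response over all members was not tested. SAUR16 and SAUR23 had 0 and fell in red light, while SAUR61 had 3 and was not called. SAUR14 and SAUR15 are neighbours transcribed away from each other, with 497 bases between their starts, so the region between them is upstream of both.

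Per length of transcript model, the family spanned a wide range of levels. The members SAUR2, SAUR42, SAUR71 and SAUR75 had too few reads to be tested, between 0 and 16 per library, and 47 of the 51 passed the filter on low counts. The most abundant was SAUR78, outside the clusters, at a mean of 147 RPKM (reads per kilobase of model, scaled to library total) over the 8 libraries. The highest in the clusters by mean level were SAUR50 at 72.7 RPKM in AT4G347-348, SAUR19 at 46.3 RPKM in AT5G180, SAUR14 at 41.1 RPKM in AT4G388, SAUR29 at 24.9 RPKM in AT3G038 and SAUR63 at 24.5 RPKM in AT1G294-295. The files' models of 8 members, SAUR24 and SAUR29 among them, are as long as the coding sequence alone, which raises their RPKM relative to members whose models hold untranslated ends.

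Summed over all 51 members, SAUR transcripts were at 509.7 and 509.4 CPM in phyAB, 825.3 and 834.2 CPM in phyB, 472.3 and 472.7 CPM in WT red, and 677.3 and 688.5 CPM in WT dark. The phyB libraries were the highest, the WT dark libraries came next, and phyAB and WT red were the lowest, with no overlap between groups. The sum in AT5G180 was 80.9 and 83.9 CPM in phyAB, 145.6 and 148.5 CPM in phyB, 43.5 and 38.9 CPM in WT red, and 116.6 and 122.6 CPM in WT dark. In AT1G294-295 it was 76.4 and 78.1 CPM in phyAB, 132.5 and 137.7 CPM in phyB, 54.1 and 57.8 CPM in WT red, and 105.9 and 113.7 CPM in WT dark. Both of these clusters kept the order phyB, WT dark, phyAB, WT red from high to low. A sum within a cluster does not depend on how reads were divided among its own copies, provided that each read was counted once. Whether that was so is not stated, and reads of SAUR62 could also be shared with SAUR75, which lies outside the clusters.

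AT3G038 summed to 29.8 and 26.6 CPM in phyAB, 56.8 and 64.0 CPM in phyB, 21.8 and 22.6 CPM in WT red, and 37.6 and 35.9 CPM in WT dark. AT4G347-348 summed to 60.5 and 51.2 CPM in phyAB, 87.0 and 83.4 CPM in phyB, 51.6 and 50.95 CPM in WT red, and 74.3 and 72.8 CPM in WT dark. The order in AT3G038 was that of the larger clusters, and in AT4G347-348 the phyAB and WT red libraries overlapped below those of phyB and WT dark. Most of the AT4G347-348 sum was SAUR50, with 43.9 and 41.1 CPM in WT red. In AT4G388 the sum was 33.8 and 34.5 CPM in phyAB, 96.4 and 95.2 CPM in phyB, 44.8 and 43.9 CPM in WT red, and 45.2 and 47.2 CPM in WT dark, so the sum was lowest in phyAB. SAUR14 weighed most in that order, with 12.0 and 14.3 CPM in phyAB and 31.6 and 30.9 CPM in WT red. The other 3 genes, SAUR13, SAUR15 and SAUR16, were each called higher in phyAB than in WT red. Outside the clusters the sum was 228.4 and 235.1 CPM in phyAB, 307.0 and 305.5 CPM in phyB, 256.5 and 258.5 CPM in WT red, and 297.7 and 296.3 CPM in WT dark, again with phyAB lowest. Abundant genes weighed heavily there: SAUR78 had 84.1 and 86.9 CPM in phyAB, against 99.4 and 98.3 CPM in WT red. SAUR36 had 24.0 and 23.7 CPM in phyAB, against 35.3 and 36.9 CPM in WT red. By calls in phyAB against WT red, 6 of the 20 tested members outside the clusters were higher and 7 lower.

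**Figure D2:**
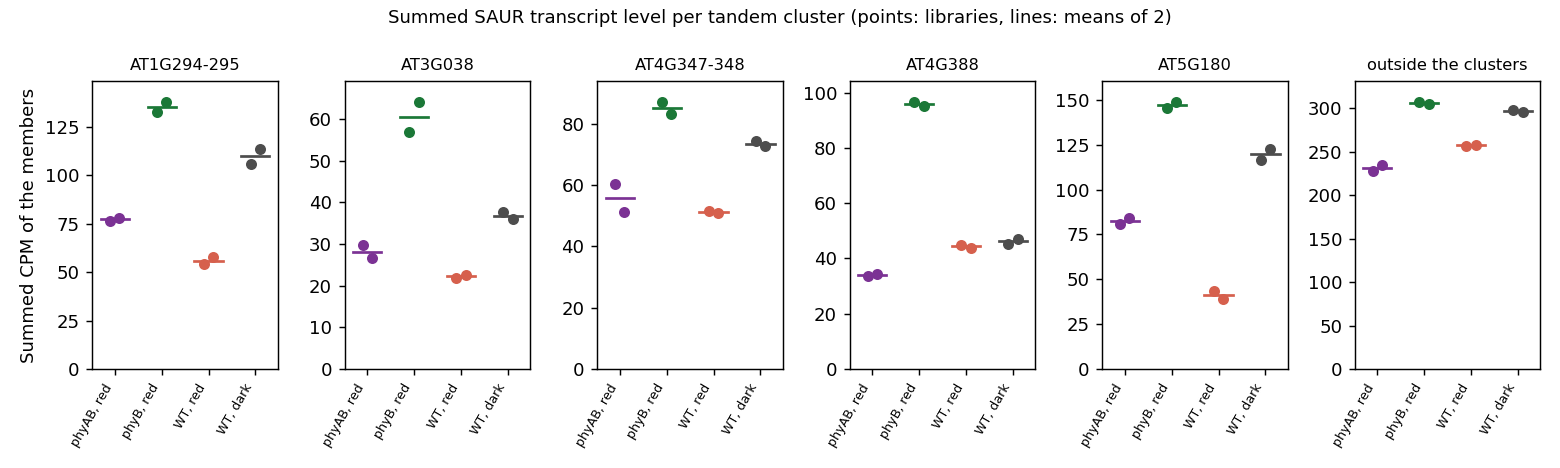
Summed CPM of the member genes in each tandem cluster and outside the clusters, by library (points) and group mean of 2 libraries (lines). The phyB libraries are the highest in every panel, while the lowest group is WT red in 4 clusters and phyAB in AT4G388 and outside the clusters.

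Most SAUR transcripts that changed in wild type were lower after 1 h of red light. In WT red against WT dark, 29 of the 47 tested members fell, against 22.7% of all 20716 genes tested, and 4 rose, against 24.1% of all genes. At a change of at least 2-fold, 18 members fell, against 2.67% of all genes. The median log2 change of the tested members was -0.72, and that of all genes 0.00. In the clusters 22 of 27 tested members fell and 1 rose, while outside them 7 of 20 fell and 3 rose. Among the 26 tested members with no other member at 80% identity or more, 13 fell and 3 rose. The falls of SAUR3, SAUR7 and SAUR65 were lost without a single library, WT red replicate 1 for SAUR3 (adjusted p = 0.303) and SAUR7 (0.609), WT dark replicate 2 for SAUR3 (0.178) and SAUR65 (0.1) and WT dark replicate 1 for SAUR7 (0.0568). The other SAUR loci had 6 falls and 2 rises among 20 tested.

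SAUR25 (AT4G13790), outside the clusters, changed most. It had 0.880 and 0.877 CPM in WT red, against 7.21 and 6.82 CPM in WT dark, a log2 change of -2.99 ± 0.24 (SE; adjusted p = 8.5e-23, edgeR quasi-likelihood test). SAUR22 (AT5G18050) had 5.13 and 4.26 CPM in WT red, against 22.7 and 22.8 CPM in WT dark, and fell by 2.26 ± 0.12 on the log2 scale (adjusted p = 1.26e-37). SAUR13 (AT4G38825) had 1.24 and 0.877 CPM in WT red, against 4.36 and 4.99 CPM in WT dark, a log2 change of -2.11 ± 0.26 (adjusted p = 1.58e-12). In each the WT red libraries lay several-fold below those of WT dark. SAUR23, a near copy of SAUR22, had 5.28 and 3.70 CPM in WT red, against 17.4 and 19.4 CPM in WT dark (log2 change -2.01 ± 0.13, adjusted p = 5.67e-30). SAUR19, for which the binding of PP2C.D phosphatases was worked out, had 9.89 and 8.96 CPM in WT red, against 26.8 and 30.7 CPM in WT dark (log2 change -1.60 ± 0.10, adjusted p = 1.32e-32). All 6 genes of AT5G180 fell, by 0.80 to 2.26 on the log2 scale.

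In AT4G388, SAUR15 (AT4G38850), a classic auxin-induced gene also known as SAUR-AC1, had 1.92 and 1.88 CPM in WT red, against 4.11 and 6.07 CPM in WT dark (log2 change -1.41 ± 0.22, adjusted p = 1.29e-08). SAUR16 (AT4G38860) had 9.995 and 10.3 CPM in WT red, against 28.4 and 27.8 CPM in WT dark (log2 change -1.47 ± 0.09, adjusted p = 1.4e-30). In neither gene did the groups overlap. SAUR63, whose product promotes elongation of hypocotyls and stamen filaments, had 7.20 and 9.53 CPM in WT red, against 16.5 and 18.7 CPM in WT dark (log2 change -1.09 ± 0.11, adjusted p = 1.31e-15). In its cluster, 7 of 8 genes fell and SAUR61 was not called (log2 change -0.26 ± 0.42, adjusted p = 0.648). SAUR28 of AT3G038 had 6.89 and 6.83 CPM in WT red, against 11.1 and 11.8 CPM in WT dark (log2 change -0.73 ± 0.13, adjusted p = 1.04e-06), and 3 of the 4 genes of that cluster fell. SAUR1 had 2.90 and 4.95 CPM in WT red, against 11.6 and 11.5 CPM in WT dark (log2 change -1.59 ± 0.15, adjusted p = 1.94e-17). SAUR9, which lies outside the clusters and whose product inhibits PP2C.D1, had 3.31 and 3.20 CPM in WT red, against 11.5 and 11.5 CPM in WT dark (log2 change -1.81 ± 0.16, adjusted p = 1.64e-20). The abundant SAUR78 fell little, with 99.4 and 98.3 CPM in WT red, against 119 and 112 CPM in WT dark (log2 change -0.22 ± 0.04, adjusted p = 2.98e-07).

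SAUR14 (AT4G38840), one of the genes known to be light-induced in cotyledons, went the other way. It had 31.6 and 30.9 CPM in WT red, against 8.36 and 8.38 CPM in WT dark, a log2 change of 1.90 ± 0.10 (adjusted p = 5.59e-40). Its 3 cluster neighbours all fell, and the coding sequence of SAUR14 was 61.5% identical to that of SAUR13, 59.0% to that of SAUR15 and 58.5% to that of SAUR16. SAUR51 had 2.90 and 2.01 CPM in WT red, against 0.901 and 0.913 CPM in WT dark (log2 change 1.45 ± 0.31, adjusted p = 3.94e-05). SAUR12 had 1.398 and 1.32 CPM in WT red, against 0.351 and 0.698 CPM in WT dark, from 7 to 27 reads per library (log2 change 1.38 ± 0.43, adjusted p = 0.00489). SAUR30 had 17.7 and 18.6 CPM in WT red, against 12.9 and 15.1 CPM in WT dark (log2 change 0.37 ± 0.10, adjusted p = 0.00108). Without WT dark replicate 1 the calls of SAUR12 (adjusted p = 0.144) and SAUR30 (adjusted p = 0.143) were lost. SAUR12 is 85.5% identical in coding sequence to SAUR16, which fell.

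**Figure D3:**
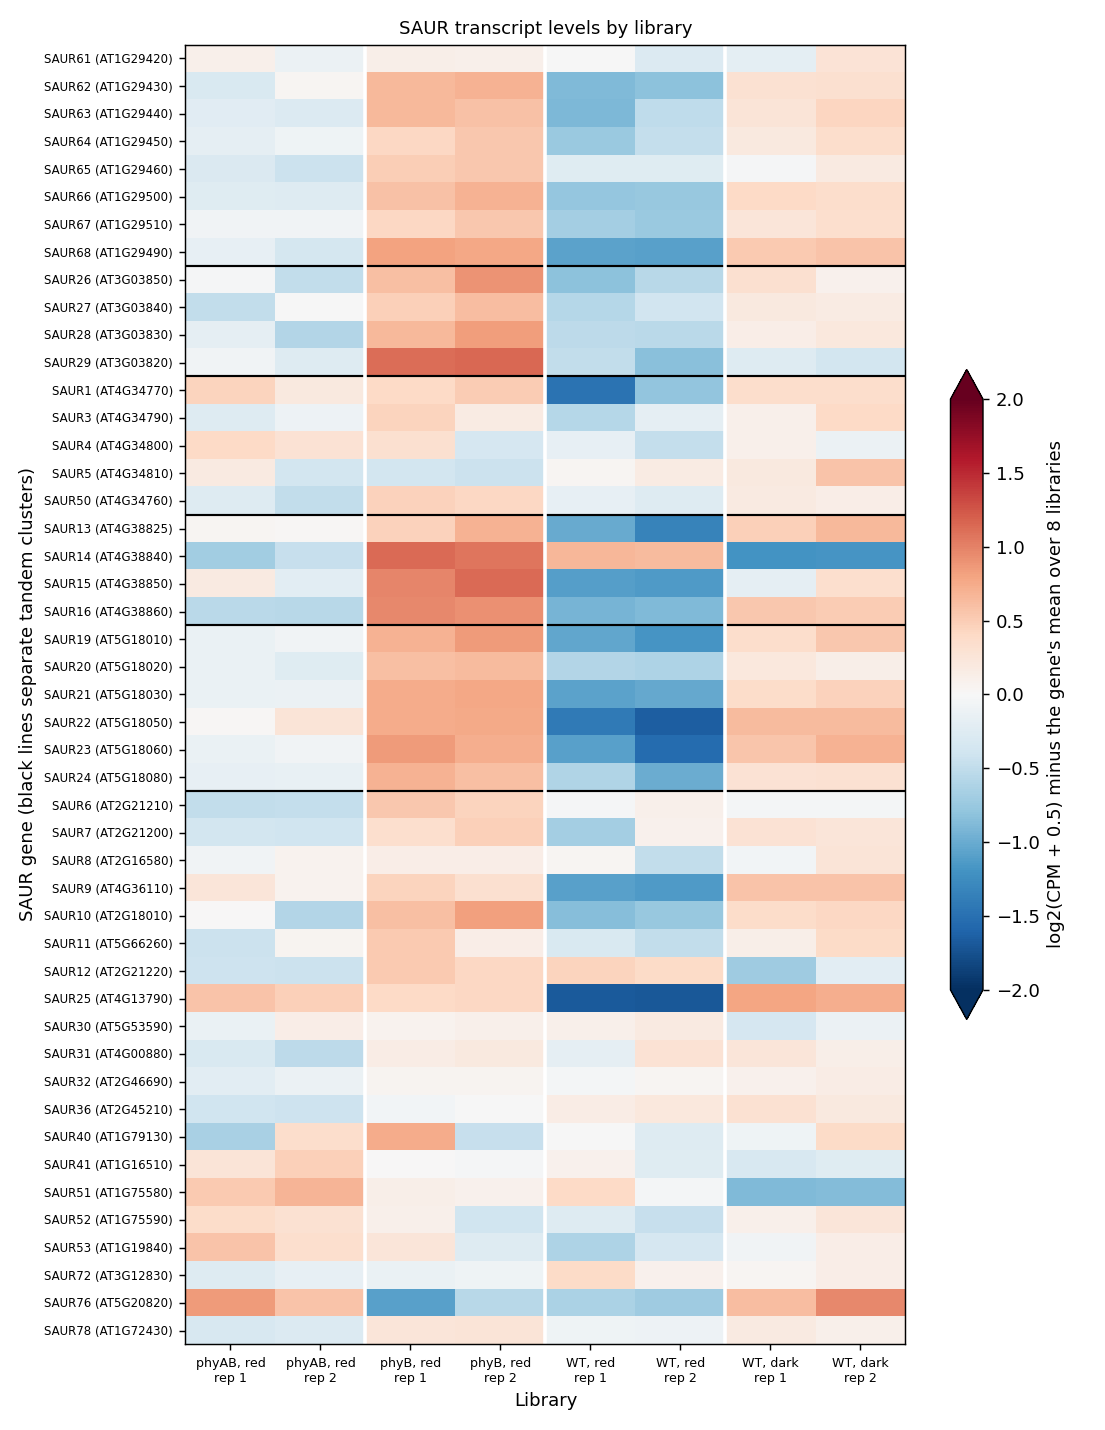
Levels of the 47 tested SAUR genes in the 8 libraries as log2(CPM + 0.5) minus the mean of the gene over the libraries, with black lines between clusters. WT red columns are blue for most cluster genes and phyB columns red, and SAUR14 is red in WT red and blue in WT dark.

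Most of these transcripts were higher in red-lit phyB seedlings than in red-lit wild type. In phyB against WT red, 31 of the 47 tested members were higher, against 13.1% of all genes tested, and 2 were lower, against 14.1% of all genes. At least 2-fold higher were 23 members, against 1.13% of all genes. The median log2 change was 0.90 over the members and 0.00 over all genes. In the clusters 24 of 27 were higher and none lower; outside them 7 of 20 were higher and 2 lower. This comparison shares its WT red libraries with the one before, so a low value in WT red enters both, and the values are given side by side only. Of the other SAUR loci, 2 of 20 tested were higher and 2 lower.

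SAUR25 was again the most changed, with 5.36 and 5.44 CPM in phyB, against 0.880 and 0.877 CPM in WT red (log2 change 2.61 ± 0.25, adjusted p = 4.04e-17). SAUR15 had 9.73 and 10.9 CPM in phyB, against 1.92 and 1.88 CPM in WT red (log2 change 2.44 ± 0.19, adjusted p = 1.26e-22). SAUR22 had 24.6 and 24.8 CPM in phyB, against 5.13 and 4.26 CPM in WT red (log2 change 2.38 ± 0.12, adjusted p = 1.15e-39). For all 3 genes the phyB libraries stood clear of those of WT red. SAUR23 had 21.6 and 19.9 CPM in phyB, against 5.28 and 3.70 CPM in WT red (log2 change 2.18 ± 0.13, adjusted p = 5.46e-33). SAUR16, likewise known as light-induced in cotyledons, had 38.5 and 36.9 CPM in phyB, against 9.995 and 10.3 CPM in WT red (log2 change 1.89 ± 0.09, adjusted p = 8.38e-42). Every gene of AT5G180, AT4G388 and AT3G038 was higher in phyB. The 3 cluster genes not called were SAUR61, SAUR4 and SAUR5. SAUR50 had 68.0 and 65.7 CPM in phyB, against 43.9 and 41.1 CPM in WT red (log2 change 0.65 ± 0.06, adjusted p = 9.05e-20).

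SAUR14, which red light raised in wild type, was higher still in phyB, with 44.0 and 42.2 CPM, against 31.6 and 30.9 CPM in WT red (log2 change 0.46 ± 0.07, adjusted p = 3.05e-08). The 2 members that were lower lie outside the clusters. SAUR36, also called SAG201 and linked to leaf senescence, had 30.5 and 31.6 CPM in phyB, against 35.3 and 36.9 CPM in WT red (log2 change -0.21 ± 0.07, adjusted p = 0.0121). That call was lost without WT red replicate 2 (adjusted p = 0.115) and without phyB replicate 1 (adjusted p = 0.0793), and in DESeq2 (adjusted p = 0.1). SAUR72 had 13.97 and 14.6 CPM in phyB, against 20.2 and 16.5 CPM in WT red (log2 change -0.37 ± 0.10, adjusted p = 0.00207), and the call was lost without WT red replicate 1 (adjusted p = 0.299). The calls of SAUR3 and SAUR7 were also lost without a single library: WT red replicate 1 for both (adjusted p = 0.33 for SAUR3 and 0.37 for SAUR7), phyB replicate 1 for SAUR3 (0.19) and phyB replicate 2 for SAUR7 (0.0627).

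**Figure D4:**
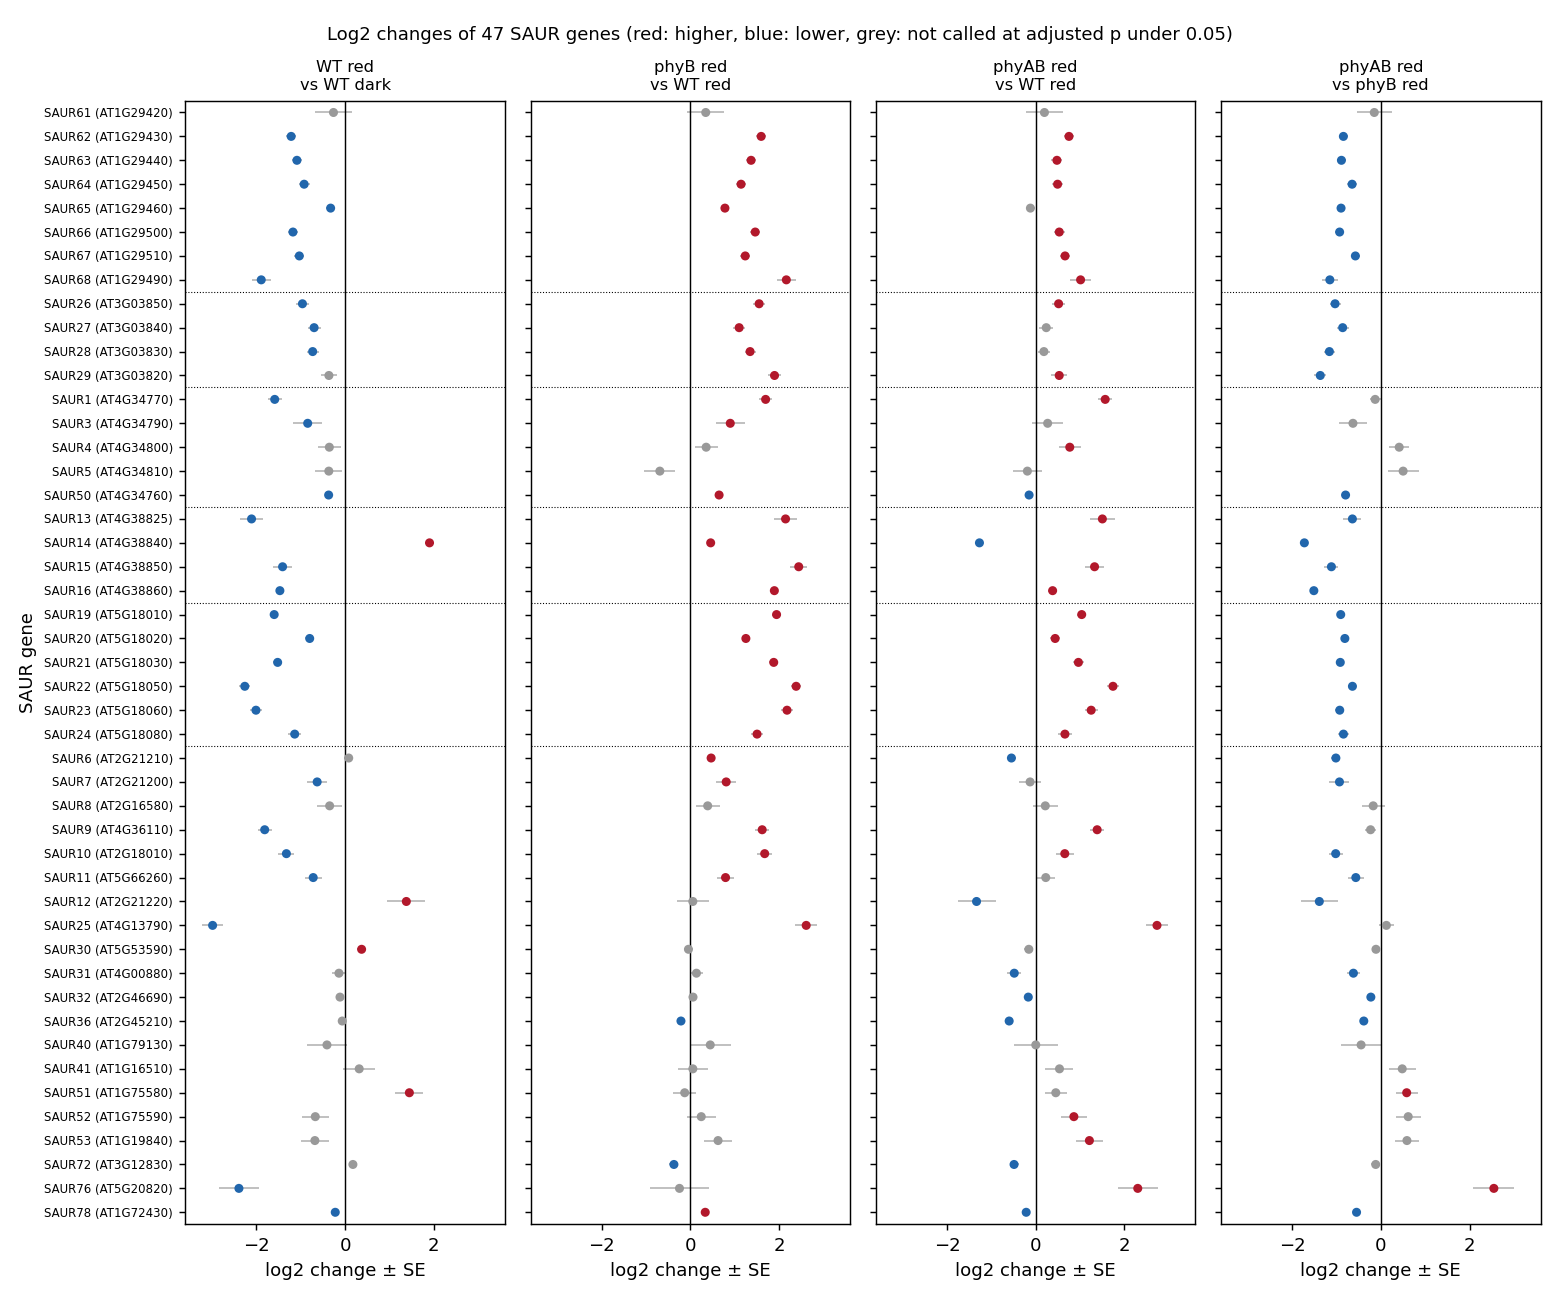
Log2 change with its SE for the 47 tested SAUR genes in 4 comparisons, with dotted lines between clusters and colour for genes called at an adjusted p under 0.05 in the edgeR quasi-likelihood test. Most cluster genes lie left of 0 in WT red against WT dark and right of 0 in phyB against WT red, where 31 of 47 were higher, and left of 0 in phyAB against phyB, where 31 of 47 were lower.

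In the double mutant the difference from WT red was smaller and more mixed in direction. In phyAB against WT red, 25 of the 47 tested members were higher, against 22.3% of all genes tested, and 9 were lower, against 22.7% of all genes. At least 2-fold higher were 11 members, against 4.04% of all genes. The median log2 change of the members was 0.48, and that of all genes 0.00. The clusters held 19 of the 25 rises and 2 of the 9 falls. Outside them 6 of 20 were higher and 7 lower. Of the 26 tested members with no other member at 80% identity, 9 were higher and 7 lower. The calls of SAUR4, SAUR52, SAUR29 and SAUR10 were lost without phyAB replicate 1 (adjusted p = 0.0531, 0.0751, 0.136 and 0.477 in that order), those of SAUR4, SAUR52 and SAUR29 also without WT red replicate 2 (0.0867, 0.0933 and 0.16), and those of SAUR63 and SAUR64 without WT red replicate 1 (0.148 and 0.0801). The call of SAUR26 was lost without WT red replicate 1 (adjusted p = 0.121) or phyAB replicate 1 (0.392). Among the other SAUR loci, 7 of 20 were higher and 2 lower.

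SAUR25 had 6.10 and 5.65 CPM in phyAB, against 0.880 and 0.877 CPM in WT red (log2 change 2.74 ± 0.25, adjusted p = 3.02e-19). SAUR22 had 14.6 and 17.4 CPM in phyAB, against 5.13 and 4.26 CPM in WT red (log2 change 1.74 ± 0.13, adjusted p = 1.61e-25). SAUR1 had 12.3 and 10.3 CPM in phyAB, against 2.90 and 4.95 CPM in WT red (log2 change 1.57 ± 0.15, adjusted p = 5.02e-17). Each of the 3 was at least 2-fold higher in every phyAB library than in either WT red library. SAUR76, whose product has been reported to bind ethylene receptors, had 1.90 and 1.47 CPM in phyAB, against 0.363 and 0.313 CPM in WT red (log2 change 2.30 ± 0.46, adjusted p = 7.39e-06). Its reads were 42 and 25 in the phyAB libraries and 7 and 5 in those of WT red.

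Members that were lower in phyAB than in WT red included SAUR14, with 12.0 and 14.3 CPM in phyAB, against 31.6 and 30.9 CPM in WT red (log2 change -1.27 ± 0.09, adjusted p = 1.08e-27). SAUR12 had 0.542 and 0.530 CPM in phyAB, against 1.398 and 1.32 CPM in WT red (log2 change -1.33 ± 0.43, adjusted p = 0.0066). That call was lost without WT red replicate 1 (adjusted p = 0.0525) and in DESeq2 (adjusted p = 0.0504). These are 2 of the 4 genes that red light raised in wild type. SAUR36 had 24.0 and 23.7 CPM in phyAB, against 35.3 and 36.9 CPM in WT red (log2 change -0.60 ± 0.07, adjusted p = 1.28e-12). SAUR6 had 10.1 and 10.2 CPM in phyAB, against 14.2 and 15.5 CPM in WT red (log2 change -0.54 ± 0.11, adjusted p = 1.05e-05). SAUR72 had 12.8 and 13.7 CPM in phyAB, against 20.2 and 16.5 CPM in WT red (log2 change -0.49 ± 0.10, adjusted p = 2.2e-05). The groups did not overlap in any of these 5 genes. SAUR78 had 84.1 and 86.9 CPM in phyAB, against 99.4 and 98.3 CPM in WT red (log2 change -0.21 ± 0.04, adjusted p = 3.99e-06).

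The remaining 3 falls were small. SAUR31 had 5.69 and 4.83 CPM in phyAB, against 6.21 and 8.77 CPM in WT red (log2 change -0.48 ± 0.16, adjusted p = 0.00826). SAUR32, known for a part in keeping the apical hook closed, had 34.5 and 36.5 CPM in phyAB, against 38.7 and 40.8 CPM in WT red (log2 change -0.16 ± 0.06, adjusted p = 0.0269). SAUR50 had 41.4 and 34.9 CPM in phyAB, against 43.9 and 41.1 CPM in WT red, and the libraries of the groups overlapped (log2 change -0.15 ± 0.06, adjusted p = 0.0444). Each of these calls was lost when 1 library was left out: SAUR31 without WT red replicate 2 (adjusted p = 0.382) or phyAB replicate 2 (0.0949), SAUR32 without WT red replicate 2 (0.195) or phyAB replicate 1 (0.263), and SAUR50 without WT red replicate 1 (0.37) or phyAB replicate 2 (0.673). With upper-quartile scaling the calls of SAUR32 (0.0889) and SAUR50 (0.138) were lost, and in DESeq2 those of SAUR31 (0.0545), SAUR32 (0.115) and SAUR50 (0.154).

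Set directly against each other, most called members were lower in phyAB than in phyB. In phyAB against phyB, 31 of the 47 tested members were lower, against 24.1% of all genes tested, and 2 were higher, against 26.1% of all genes. At least 2-fold lower were 10 members, against 4.35% of all genes. The median log2 change of the members was -0.64, and that of all genes 0.01. In the clusters 22 of 27 were lower and none higher, and outside them 9 of 20 were lower and 2 higher. This comparison uses no wild-type library, though it shares the phyB libraries with the phyB comparison. For the other SAUR loci the counts were 2 lower and 7 higher of 20.

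SAUR14 had 12.0 and 14.3 CPM in phyAB, against 44.0 and 42.2 CPM in phyB, the largest fall (log2 change -1.72 ± 0.08, adjusted p = 3.36e-42). SAUR16 had 13.3 and 13.1 CPM in phyAB, against 38.5 and 36.9 CPM in phyB (log2 change -1.51 ± 0.08, adjusted p = 3.26e-36). SAUR29 had 5.96 and 5.18 CPM in phyAB, against 14.3 and 14.6 CPM in phyB (log2 change -1.36 ± 0.14, adjusted p = 7.61e-17). All 3 were more than 2-fold lower in phyAB. SAUR28, a neighbour of SAUR29, had 8.85 and 6.54 CPM in phyAB, against 16.2 and 18.5 CPM in phyB (log2 change -1.16 ± 0.12, adjusted p = 3.4e-16). SAUR12 had 0.542 and 0.530 CPM in phyAB, against 1.496 and 1.35 CPM in phyB (log2 change -1.39 ± 0.42, adjusted p = 0.00324). The 6 genes of AT5G180 were lower by 0.64 to 0.93 on the log2 scale. The call of SAUR13 was lost without phyB replicate 2 (adjusted p = 0.129), and that of SAUR11 without phyAB replicate 1 (0.322) or phyB replicate 1 (0.176). That of SAUR32 was lost without phyAB replicate 1 (0.0588).

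Only SAUR76 and SAUR51 of the 47 were called higher in phyAB than in phyB. SAUR76 had 1.90 and 1.47 CPM in phyAB, against 0.125 and 0.405 CPM in phyB, from 42 and 25 reads against 2 and 9 (log2 change 2.55 ± 0.46, adjusted p = 8.6e-07). SAUR51 had 3.21 and 3.65 CPM in phyAB, against 2.31 and 2.25 CPM in phyB (log2 change 0.58 ± 0.24, adjusted p = 0.0382). The call of SAUR51 was lost without any 1 of those 4 libraries (adjusted p = 0.0563 to 0.169) and in DESeq2 (adjusted p = 0.178).

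**Figure D5:**
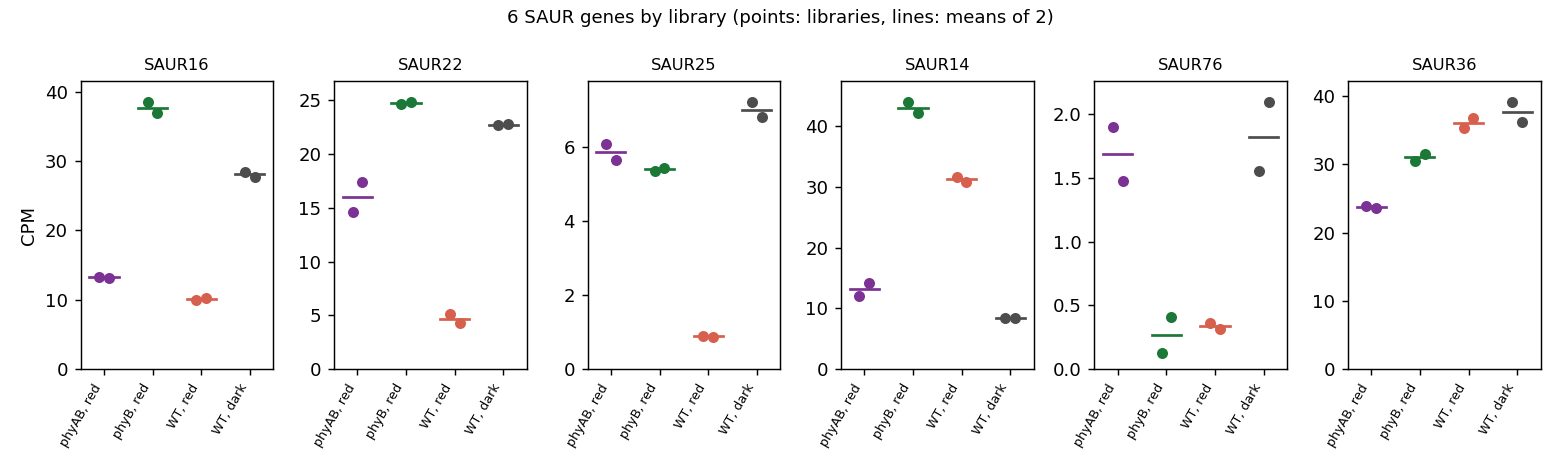
CPM of 6 SAUR genes by library (points) and group mean of 2 libraries (lines), each panel with its own axis from 0. SAUR16 and SAUR22 are lowest in WT red and highest in phyB, SAUR25 is low in WT red alone, SAUR14 is lowest in WT dark, SAUR76 is low in phyB and WT red, and SAUR36 is lowest in phyAB.

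Sorted by their calls in these 4 comparisons, 17 of the 47 tested members were lower in WT red than in WT dark, higher in both mutants than in WT red, and lower in phyAB than in phyB. They comprise all 6 genes of AT5G180, 6 of AT1G294-295 (SAUR62, SAUR63, SAUR64, SAUR66, SAUR67 and SAUR68), SAUR13, SAUR15, SAUR16, SAUR26 and SAUR10. For SAUR10, SAUR26, SAUR63 and SAUR64 the call in phyAB against WT red was lost without 1 library, as given above. So was that of SAUR13 in phyAB against phyB. When tested against a 1.2-fold change, SAUR16, SAUR20, SAUR26 and SAUR63 lost the call in phyAB against WT red. The phyB libraries were above the other 6 libraries for 25 of the 47 tested members, against 14.8% of all genes. Both WT red libraries were below the other 6 for 22 members, against 7.20% of all genes. For 19 members each phyB library exceeded each phyAB library, and each of these exceeded each WT red library, against 2.24% of all genes. These patterns use the same libraries as the calls and are counted as descriptions. For the sorting by calls, here and below, the share of all genes was not counted.

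Another 3 members were high in both mutants. SAUR25, SAUR1 and SAUR9 were lower in WT red than in WT dark and higher in each mutant than in WT red, with no call between the mutants. For SAUR25 the difference of phyAB from phyB was 0.13 ± 0.17 (adjusted p = 0.558), for SAUR1 it was -0.13 ± 0.12 (adjusted p = 0.4) and for SAUR9 -0.23 ± 0.13 (adjusted p = 0.135). SAUR9 had 9.03 and 7.95 CPM in phyAB, 10.5 and 9.62 CPM in phyB, 3.31 and 3.20 CPM in WT red, and 11.5 and 11.5 CPM in WT dark. A p above the threshold does not show that the mutants were alike in these genes.

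In 5 members (SAUR7, SAUR11, SAUR27, SAUR28 and SAUR65) the red-light fall and the phyB rise were called, phyAB was lower than phyB, and phyAB was not called apart from WT red. SAUR27, a neighbour of SAUR28 and SAUR29, had 5.92 and 8.42 CPM in phyAB, 12.1 and 13.3 CPM in phyB, 5.59 and 6.39 CPM in WT red, and 9.77 and 9.61 CPM in WT dark. SAUR3 was lower in WT red than in WT dark and higher in phyB than in WT red, and was not called in the other two comparisons. SAUR4, SAUR52 and SAUR53 were called only as higher in phyAB than in WT red, by 0.77 ± 0.24, 0.86 ± 0.30 and 1.21 ± 0.30 on the log2 scale. SAUR5, SAUR8, SAUR40, SAUR41 and SAUR61 were called in none of the 4 comparisons, and all of them had under 3 CPM in every library.

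SAUR76 (AT5G20820) had a low level in phyB and in WT red. Between phyB and WT red its log2 change was -0.25 ± 0.66 (adjusted p = 0.838). It had 0.363 and 0.313 CPM in WT red, against 1.55 and 2.09 CPM in WT dark (log2 change -2.39 ± 0.45, adjusted p = 2.27e-06). SAUR17, of the SAUR loci that are not members, is known to act in the apical hook of dark-grown seedlings. It had 2.17 and 2.47 CPM in phyAB, 0.125 and 0.360 CPM in phyB, 0.155 and 0.376 CPM in WT red, and 1.35 and 1.56 CPM in WT dark. It was also lower in WT red than in WT dark (log2 change -2.47 ± 0.50, adjusted p = 1.01e-05) and higher in phyAB than in phyB (3.12 ± 0.45, adjusted p = 7.59e-10), with no call between phyB and WT red (0.02 ± 0.72, adjusted p = 0.987).

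Against the dark wild type, phyB in red light was higher at 22 of 47 tested members, against 27.5% of all genes, and lower at 4, against 27.1%. The median log2 change was 0.22 over the members. The largest rise was that of SAUR14, with 44.0 and 42.2 CPM in phyB, against 8.36 and 8.38 CPM in WT dark (log2 change 2.36 ± 0.09, adjusted p = 2.03e-52). SAUR29 had 14.3 and 14.6 CPM in phyB, against 5.21 and 4.78 CPM in WT dark (log2 change 1.53 ± 0.14, adjusted p = 2.96e-19), and SAUR15 had 9.73 and 10.9 CPM, against 4.11 and 6.07 CPM (1.03 ± 0.16, adjusted p = 3.94e-09). SAUR22 (0.12 ± 0.09, adjusted p = 0.227) and SAUR23 (0.17 ± 0.10, adjusted p = 0.13) were not called. In this comparison 10 calls were lost without 1 library of the pair of groups, those of SAUR5, SAUR10, SAUR12, SAUR24, SAUR25, SAUR27, SAUR30, SAUR63, SAUR66 and SAUR78 (adjusted p = 0.0548 to 0.421). The largest fall was that of SAUR76 (log2 change -2.64 ± 0.46, adjusted p = 2.42e-07).

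The double mutant in red light stood mostly below the dark wild type. In phyAB against WT dark, 29 of 47 tested members were lower, against 20.9% of all genes, and 3 were higher, against 27.2%. The median log2 change was -0.44 over the members and 0.04 over all genes. The largest fall was that of SAUR16, with 13.3 and 13.1 CPM in phyAB, against 28.4 and 27.8 CPM in WT dark (log2 change -1.09 ± 0.09, adjusted p = 5.86e-23). The 3 that were higher were SAUR51 (log2 change 1.90 ± 0.29, adjusted p = 1.01e-08), SAUR14 (0.64 ± 0.11, adjusted p = 3.3e-07) and SAUR41 (0.86, adjusted p = 0.0215), and the call of SAUR41 was lost without WT dark replicate 1 (0.126), WT dark replicate 2 (0.0794) or phyAB replicate 2 (0.132). Among the falls, those of SAUR9 and SAUR10 were lost without phyAB replicate 2 (adjusted p = 0.0562 and 0.0654), that of SAUR26 without it (0.197) or WT dark replicate 1 (0.0864), and those of SAUR27, SAUR62 and SAUR72 without phyAB replicate 1 (0.372, 0.065 and 0.115). The falls of SAUR11 and SAUR13 were lost without phyAB replicate 1 (0.495 and 0.0589) or WT dark replicate 2 (0.175 and 0.0681). Both comparisons with WT dark combine genotype and light, which cannot be told apart here.

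Genes for the partners of SAUR proteins and for auxin response were listed as 4 groups, and their counts stand beside the shares of all genes called, which were 24.1% higher and 22.7% lower in WT red against WT dark, 13.1% and 14.1% in phyB against WT red, and 22.3% and 22.7% in phyAB against WT red. Each list held few genes, and nothing particular to a list can be read from its counts. Of the 9 PP2C.D phosphatase genes tested, 3 were higher and 4 lower in WT red than in WT dark, 4 were higher and none lower in phyB than in WT red, and 4 were higher and 2 lower in phyAB than in WT red. The most abundant, AT3G51370, had 169 and 168 CPM in phyAB, 202 and 199 CPM in phyB, 191 and 199 CPM in WT red, and 211 and 206 CPM in WT dark. AT5G66080 had the largest change in red light, with 17.9 and 18.1 CPM in WT red, against 29.0 and 29.5 CPM in WT dark (log2 change -0.70 ± 0.08, adjusted p = 1.24e-13). AT5G02760, which encodes PP2C.D1 and was picked out after its values were seen, had 33.9 and 31.0 CPM in phyAB, 38.9 and 41.7 CPM in phyB, 15.8 and 17.1 CPM in WT red, and 17.8 and 17.4 CPM in WT dark. It was thus higher in each mutant than in WT red, by 0.99 ± 0.08 in phyAB (adjusted p = 6.13e-22) and by 1.30 ± 0.08 in phyB (adjusted p = 1.01e-31) on the log2 scale.

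Beside the same shares of all genes (24.1% higher and 22.7% lower in red light), of 10 tested proton pump genes 1 was higher and 5 were lower in WT red than in WT dark, 2 were higher and 2 lower in phyB than in WT red, and 5 were higher and 1 lower in phyAB than in WT red. HA2 (AHA2), the most abundant pump gene and the one with the largest change in red light, had 2018 and 2021 CPM in phyAB, 1364 and 1382 CPM in phyB, 1381 and 1393 CPM in WT red, and 2090.3 and 2093 CPM in WT dark. It was lower in WT red than in WT dark (log2 change -0.59) and higher in phyAB than in WT red (0.54), while phyB and WT red were not called apart (-0.01, adjusted p = 0.585).

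Beside the shares of 24.1% higher and 22.7% lower over all genes in red light, of the 6 TIR1/AFB auxin receptor genes 1 was higher and 3 were lower in WT red than in WT dark, 2 were higher and 2 lower in phyB than in WT red, and 1 was higher and 1 lower in phyAB than in WT red. TIR1, the most abundant, had 119 and 115 CPM in phyAB, 136 and 132 CPM in phyB, 142 and 141 CPM in WT red, and 148 and 148 CPM in WT dark. GRH1 (AFB1) changed most, with 57.1 and 54.7 CPM in phyAB, 68.3 and 69.8 CPM in phyB, 44.3 and 40.0 CPM in WT red, and 63.0 and 61.5 CPM in WT dark. Its log2 change was -0.56 ± 0.05 in WT red against WT dark (adjusted p = 2.94e-17) and 0.71 ± 0.05 in phyB against WT red (adjusted p = 6.94e-24). Of the 5 activating auxin response factor genes, which encode the factors that bind auxin response elements, 2 were higher and 1 lower in WT red than in WT dark, 1 was higher and none lower in phyB than in WT red, and 1 was higher and 2 lower in phyAB than in WT red. NPH4 (ARF7), the most abundant, had 108 and 105 CPM in WT red, against 100.1 and 94.4 CPM in WT dark. ARF8 had 49.2 and 48.0 CPM in WT red, against 27.3 and 26.6 CPM in WT dark (log2 change 0.85 ± 0.06, adjusted p = 1.72e-24).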

How the data were processed

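Each deposited file held, per the file headers, a read count and an RPKM value for 27416 transcript models, 1 per locus, in 1 library. The deposited counts were whole numbers per model, and the authors' RPKM values equalled reads over model length and library total (implied length whole within 0.01 for 100.0% of 24548 models). Per the submitters' processing notes, the build used by the authors was TAIR 10. The aligner, the counter and its use of strand were not given in the sources used here. Counts were tested with edgeR 4.0.16 in R 4.3.3: TMM scaling, filterByExpr (minimum count 10), a robust quasi-likelihood fit with 1 coefficient per group over all 8 libraries, and Benjamini-Hochberg adjustment over the 20716 genes kept. A call is an adjusted p below 0.05, two-sided, and every adjusted p comes from this test unless DESeq2 is named. The SE of a log2 change is its size over the square root of the F statistic. CPM uses TMM-scaled totals, and RPKM is the deposited value, used to compare genes. A gene with 0 reads may have had up to 3, or 0.136 to 0.188 CPM, for counting error only. The fit was tested on simulated counts with known changes.

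The members and lists were chosen with earlier results of these data known. Values by library are given for the 4 largest rises and falls in each of the first 4 comparisons among members of at least 1 CPM, the most abundant member of each cluster and outside them, and members called against the majority. From each pathway list the most abundant gene and the largest called change in red light are given. SAUR17, of the SAUR loci that are not members, was named singly in the plan and not chosen by these rules. Among the 20 tested of those loci it had the lowest log2 change in red light (-2.47). It also had the highest in phyAB against phyB (3.12). Other members named, such as SAUR9, SAUR27, SAUR41 and SAUR61, were picked after their values were seen, including those named for a call lost under an alternative. Names came from the RefSeq gene table of TAIR10.1, with AT1G29490 taken as SAUR68 and AT1G29510 as SAUR67, and AT5G01830 left out because its listed name is shared with SAUR21. Upstream windows and coding sequences came from the RefSeq annotation of TAIR10.1. The model length in the files equalled that of a RefSeq transcript for 8 of 51 members, so annotated starts may differ from the authors' models. Alternatives were RLE and upper-quartile scaling, DESeq2 1.42.0, no filter, a replicate block, fits on the compared groups alone, a test against 1.2-fold and leaving out each library.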

Additional observations from a re-analysis of the deposited data

How the results depend on the processing

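Over the 6 comparisons, 191 member calls were made, and none changed direction under any alternative. All 191 kept their call with RLE scaling, with a replicate block and in fits on the compared groups alone. With no filter 190 kept it, with upper-quartile scaling 187, with DESeq2 166 and with the test against a 1.2-fold change 142. The DESeq2 losses in the first 4 comparisons were SAUR3 and SAUR7 in red light and in phyB, SAUR36 in phyB, SAUR4, SAUR12, SAUR31, SAUR32, SAUR50 and SAUR52 in phyAB against WT red, and SAUR11, SAUR13 and SAUR51 in phyAB against phyB. Leaving out 1 library kept between 177 and 185 of them. Each library enters only some of the comparisons, so many of the calls kept had no library of their own groups left out. Calls lost without a library of their own groups are named with each comparison above. In the test against 1.2-fold the number of members called fell to 13 from 26 for phyB against WT dark and to 19 from 32 for phyAB against WT dark, since small changes no longer count. Also lost in this test were SAUR3, SAUR7, SAUR30, SAUR65 and SAUR78 in red light. For phyB against WT red they were SAUR3, SAUR6, SAUR36, SAUR72 and SAUR78. Those for phyAB against WT red were SAUR16, SAUR20, SAUR26, SAUR29, SAUR31, SAUR32, SAUR50, SAUR63 and SAUR78. Against phyB, phyAB lost SAUR11, SAUR32, SAUR36 and SAUR51. Deviations of same-numbered libraries from their group means correlated at -0.014 to 0.008 across genes. The spread within groups was close to counting noise, so these correlations cannot show whether replicate numbers paired the libraries. Among all genes called in WT red against WT dark, upper-quartile scaling lowered the share that were higher to 42.0%, from 51.5%. The test against 1.2-fold gave 62.3%. Members with under about 2 CPM, such as SAUR12 and SAUR76, are limited by depth. With 2 libraries per group, spread rests on few values and was shared across groups.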
